A study of Rattus norvegicus with 6 samples.

Results

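The genes described here encode enzymes and subunits that methylate or demethylate histones and DNA, acetylate histones, or move nucleosomes. They were chosen by symbol: the lysine demethylases Kdm1 to Kdm8, the methyltransferases of the Kmt2, Kmt5 and Setd groups, the Smarc subunits of remodelling complexes, the CHD remodellers, the core of Polycomb repressive complex 2 (PRC2), Dnmt1, Dnmt3a, Dnmt3b, Tet2, Tet3, Ep300, Crebbp, Kat2a and Kat2b. This gave 71 of the 18286 genes in the table, in 8 families. RNA was sequenced from the line RBL-2H3, which comes from a rat basophilic leukemia and serves as a mast cell model, in 3 libraries of cells given dihydrocoumarin (DHC) and 3 libraries of control cells whose treatment is labelled as none. One treatment text is shared by all 6 samples: anti-DNP IgE at 50 ng/ml for 12 h, a wash, then the antigen DNP-HSA at 100 ng/ml for 4 h. Nothing further is stated on whether control cells received IgE and antigen, and the labels give no dose or time for DHC. The labels name peripheral blood as the tissue although the source is this 1 cell line, and they do not say that replicates were separate cultures, so the spread behind the p-values is that between libraries and may be technical.

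Chromatin enzymes act in pairs of opposed activities. Writers such as the SET-domain methyltransferases and PRC2 place methyl groups on histone lysines, and demethylases of the KDM families remove them. DNMT enzymes methylate cytosine, which TET enzymes oxidise, and the ATP-driven SMARC and CHD proteins slide or evict nucleosomes. In mast cells, gene activation after IgE receptor crosslinking takes place on chromatin shaped by these enzymes.

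Each library held between 29084976 and 34170922 gene-assigned reads, so that 3 reads correspond to 0.0878 to 0.103 RPM (reads scaled to library total). Mitochondrial genes took 4.00% ± 0.127 of reads in DHC libraries and 3.44% ± 0.0956 in control libraries (SD, n = 3 each; exact two-sided permutation p = 0.1, the smallest that 3 against 3 allows). Of 10 mast cell markers, 9 had a row in the table and 7 passed the filter on low values. Their summed level was 690.5 to 716 RPKM (reads per kilobase of exon scaled to library total) in DHC libraries and 974 to 999.9 RPKM in control libraries. Ms4a2 was called higher, Gata2, Kit and Hdc were called lower, and the mast cell proteases Tpsb2 and Cma1 lay below 1 RPKM in every library. Gata2 averaged 69.9 RPKM in DHC cells and 345 RPKM in control cells, which is most of the difference in the sum. Of 5 T cell markers only Cd3e passed the filter, at 41.8 RPKM in DHC cells and 34.6 RPKM in control cells. All 3 platelet markers passed it: Pf4 averaged 1067 RPKM in DHC cells and 1015 RPKM in control cells, with overlap, and Ppbp was called lower, at 2.21 RPKM in DHC cells and 3.55 RPKM in control cells (adjusted p = 0.0286 from limma). The 10 most counted genes took 7.93% ± 0.188 of reads in DHC libraries and 7.02% ± 0.225 in control libraries (SD, n = 3 each; exact two-sided permutation p = 0.1). These read shares, Gata2, Kit, Hdc, Ms4a2, Cd3e and Ppbp thus moved with the groups, and their part in the differences given here was not tested.

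More chromatin genes fell than rose in DHC cells, and most changes were small. Of the 71 genes, 66 had a mean of at least 1 RPKM and were tested with limma on log2(RPKM + 1). Of these, 26 passed an adjusted p of 0.05, which is 39.4%, beside 34.5% of all 10667 genes tested. Among the 66, 9 were higher, at 13.6% beside 18.4% of all genes, and 17 were lower, at 25.8% beside 16.1%. The median log2 fold change was -0.06 over the 66 genes and 0.05 over all genes tested. On the log2(RPKM + 1) scale no called member reached an absolute change of 1. The median absolute change of called genes was 0.33 among members and 0.40 among all called genes. The added 1 shrinks changes of low genes: Smarcd3, at 2.24 RPKM in DHC cells and 0.684 RPKM in control cells, differed 3.28-fold. All 3 DHC values lay above all 3 control values for 22 members and below them for 25, together 71.2% of members beside 49.7% of all genes tested (28.1% above and 21.6% below). Members were more abundant than most genes, with a median of 19.7 RPKM beside 11.2 RPKM over all genes tested. In a culture profiled in bulk, fewer cells expressing a gene and less RNA per cell cannot be told apart.

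The balance of directions depended on the scaling between libraries. With scaling by trimmed means (TMM), 5 members were higher and 24 lower, beside 12.0% and 19.8% of all genes, and the medians were -0.12 over members and -0.00 over all genes. Among the 26 called members, 18 stayed called in every alternative run, a threshold of 0.01 included, and none of the 26 changed sign. Of the 40 tested members that were not called, 18 gained a call in at least 1 alternative, so the set of changed genes depends on the processing in both directions. The 18 called members that stayed called in every run comprise 5 higher genes (Dnmt1, Kdm3a, Smarca5, Kdm1b and Smarcd3) and 13 lower genes (Chd1, Chd3, Chd4, Chd7, Setd5, Setd7, Kmt5a, Kmt2e, Kdm5b, Kdm5c, Kdm6b, Dnmt3a and Smarcc2). Fold changes below are on the log2(RPKM + 1) scale with their standard error, DHC over control, whereas N-fold values divide 1 mean RPKM by the other. Adjusted p-values are from limma with Benjamini-Hochberg adjustment over all genes tested.

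**Figure D1:**
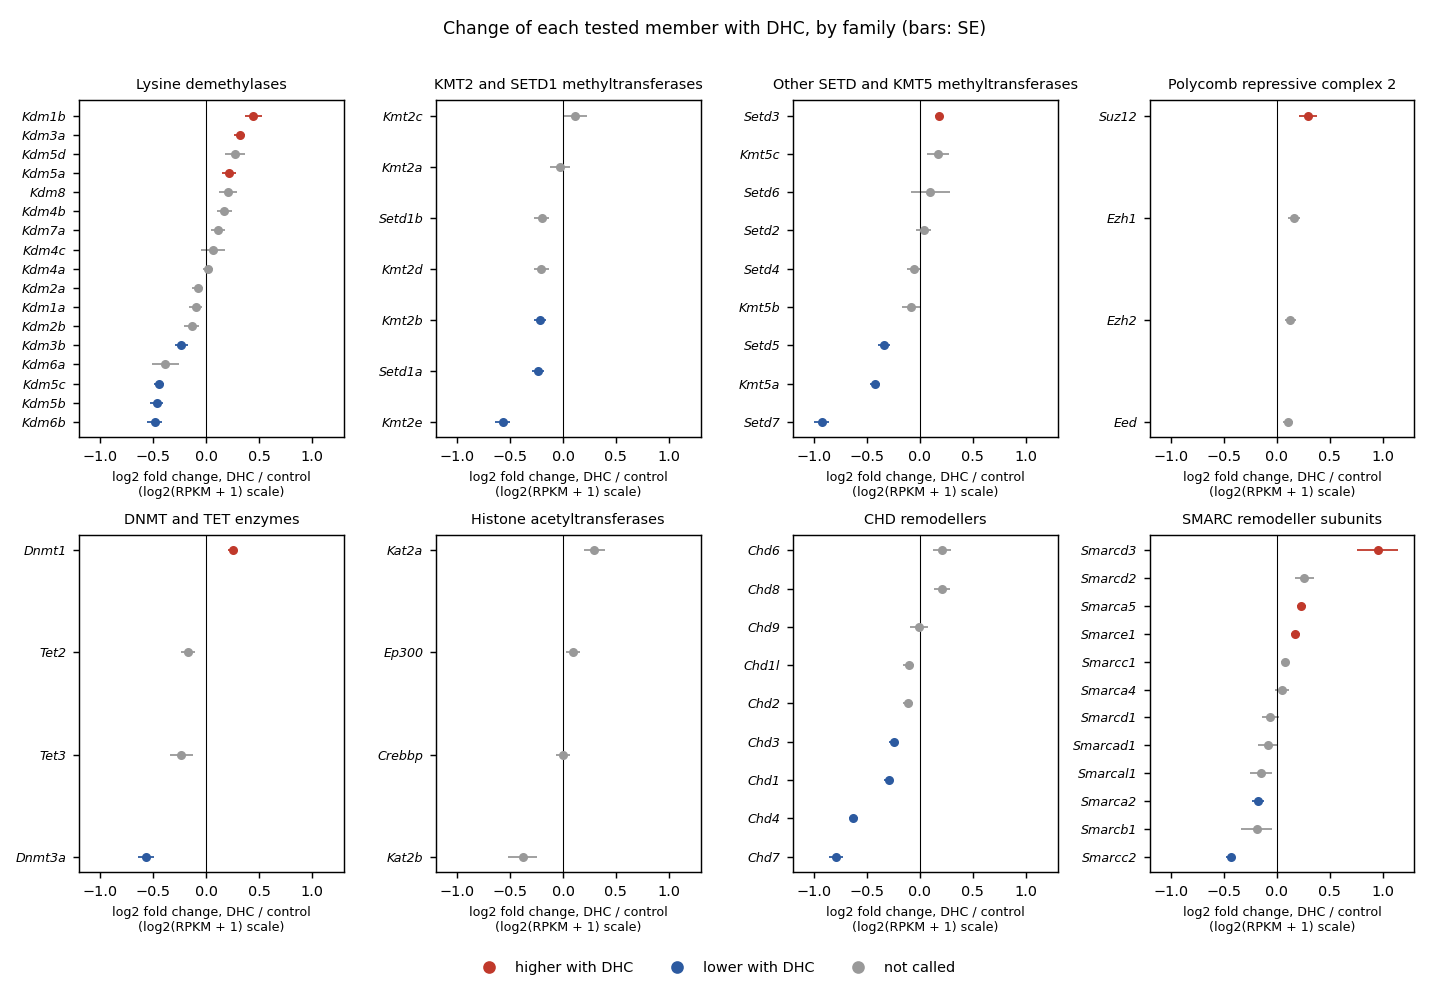
Change of each of the 66 tested genes in DHC over control cells, by family, as log2 fold change on the log2(RPKM + 1) scale (x axis, points, with bars for the standard error). Red points passed the threshold as higher (9 genes), blue points as lower (17 genes) and grey points did not pass (40 genes); the CHD and the KMT2 and SETD1 panels hold no red point.

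RefSeq promoter windows of the rat assembly GRCr8 matched 57 of the 71 genes by symbol, each from 250 bases before to 50 bases after the annotated start. The GC box GGGCGG, read on both strands, was present in 77.2% of member windows and in 33.1% of all 33469 windows of that table. Members had a median of 26 CG dinucleotides per window and all windows a median of 7. These sets of windows are unlike. Each member gave 1 window, whereas the 33469 were neither cut to 1 per symbol nor limited to genes tested here. Windows of tested genes alone were not compared, so the differences cannot be ascribed to chromatin genes. Among called genes with a window, 8 of 9 higher genes and 10 of 12 lower genes held a GC box. The CCAAT box CCAAT stood in 40.4% of member windows and 37.5% of all windows, the E-box CACGTG in 5.26% and 6.42%, and the GATA words AGATAA or TGATAA in 10.5% and 18.9%. A match is a description of the letters and not a site of binding. The 250 bases before the start are printed for the lower genes and then the higher genes with the lowest p that had a window, so that the letters can be seen beside the changes. Capitals mark the CCAAT box, the GC box, the palindromic NRF1 word (shown in the Dnmt1 line) and the E2F words TTTCGCGC or TTTGGCGC on either strand.
Chd4, chr4:159584568-159584817, plus strand of GRCr8: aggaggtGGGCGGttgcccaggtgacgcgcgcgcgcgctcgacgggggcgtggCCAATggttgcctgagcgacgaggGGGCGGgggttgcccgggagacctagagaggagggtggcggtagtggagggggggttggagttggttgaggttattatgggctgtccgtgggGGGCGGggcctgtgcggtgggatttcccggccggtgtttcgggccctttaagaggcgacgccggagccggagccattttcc
Kdm5c, chrX:24824624-24824873, plus strand of GRCr8: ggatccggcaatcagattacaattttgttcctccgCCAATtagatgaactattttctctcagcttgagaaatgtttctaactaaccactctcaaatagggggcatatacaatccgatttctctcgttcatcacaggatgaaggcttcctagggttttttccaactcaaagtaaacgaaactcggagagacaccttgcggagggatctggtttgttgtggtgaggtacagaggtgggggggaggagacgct
Dnmt1, chr8:27762842-27763091, minus strand of GRCr8: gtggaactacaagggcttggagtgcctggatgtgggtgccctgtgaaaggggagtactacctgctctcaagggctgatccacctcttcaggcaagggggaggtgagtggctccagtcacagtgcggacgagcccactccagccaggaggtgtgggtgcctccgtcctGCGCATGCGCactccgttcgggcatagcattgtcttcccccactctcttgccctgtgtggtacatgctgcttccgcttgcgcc
Kdm3a, chr4:105233371-105233620, minus strand of GRCr8: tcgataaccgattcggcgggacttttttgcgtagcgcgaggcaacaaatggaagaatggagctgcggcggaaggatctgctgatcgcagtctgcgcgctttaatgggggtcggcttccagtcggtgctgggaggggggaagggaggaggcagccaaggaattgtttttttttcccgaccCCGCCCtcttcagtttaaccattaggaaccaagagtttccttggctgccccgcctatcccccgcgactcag
The Chd4 stretch holds 3 GC boxes and 1 CCAAT box, and that of Kdm3a, which changed the other way, holds 1 GC box. In the Dnmt1 stretch the NRF1 word is present once, a word found in 5.26% of member windows (3 of 57) and 0.852% of all windows. With the 50 bases after the start, which are not printed, the Dnmt1 window also holds 2 CCAAT boxes, 1 GC box and 1 E2F word. The whole Kdm3a window holds 2 GC boxes and 1 CCAAT box. The Kdm5c stretch holds 1 CCAAT box and no GC box.

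Of 19 demethylases, 17 were tested, 3 rose and 4 fell. These shares, 17.6% and 23.5%, are near the 18.4% and 16.1% of all genes tested, and the median log2 change was 0.02 (TMM: -0.04). The demethylases of H3K4, the mark of active promoters, showed both directions. Kdm5c (chrX:22302485-22348627, Rnor_6.0), which removes H3K4 methylation, had 19.1, 19.6 and 19.4 RPKM in DHC cells, against 26.5, 26.9 and 26.7 RPKM in control cells. It fell 1.38-fold (log2 change -0.45 ± 0.05, adjusted p = 0.000415). Its paralog Kdm5b (chr13:51384389-51455357) stood at 8.03, 8.05 and 7.99 RPKM in DHC cells, against 11.7, 11.2 and 11.5 RPKM in control cells, a change of -0.47 ± 0.06 (adjusted p = 0.000962). In both genes the libraries of a group lay close together and the groups were far apart. Kdm5a, a further member of that subfamily, was higher instead, at 25.7, 23.2 and 23.5 RPKM in DHC cells, against 22.4, 19.7 and 19.9 RPKM in control cells (0.22 ± 0.07, adjusted p = 0.0465). That call was lost with TMM scaling (adjusted p = 0.123), with median-of-ratios scaling (0.109) and without any of 5 single libraries (0.0805 to 0.138), all but control replicate 1. Kdm1b, the flavin-dependent H3K4 demethylase also called LSD2, had 12.2, 11.8 and 11.6 RPKM in DHC cells, against 7.84, 9.43 and 8.11 RPKM in control cells. It rose 1.40-fold (0.45 ± 0.08, adjusted p = 0.00446), while its paralog Kdm1a had 14.8 ± 0.657 RPKM in DHC cells and 15.9 ± 0.511 RPKM in control cells (SD, n = 3 each; adjusted p = 0.239 from limma).

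Demethylases of the repressive marks H3K9 and H3K27 also held calls in both directions. Kdm3a (chr4:99503176-99546905), which removes H3K9 methylation, was the most abundant demethylase, with 52.2, 52.0 and 49.1 RPKM in DHC cells, against 42.8, 39.1 and 40.6 RPKM in control cells. It rose 1.25-fold (0.32 ± 0.05, adjusted p = 0.00342). Kdm3b, its closest relative, went the other way, at 24.4, 23.4 and 22.3 RPKM in DHC cells, against 28.7, 28.2 and 26.1 RPKM in control cells (-0.23 ± 0.06, adjusted p = 0.0202). The Kdm3b call was lost without DHC replicate 2 or 3 (0.0637 and 0.0688) and without control replicate 1 or 2 (0.0525 and 0.0687). Kdm6b (chr10:56001799-56008885), an inducible H3K27 demethylase, had 9.15, 8.90 and 8.07 RPKM in DHC cells, against 12.1, 13.0 and 12.7 RPKM in control cells. It fell 1.45-fold (-0.49 ± 0.07, adjusted p = 0.00175). The row named Kdm6a lies on chromosome Y in this table, and the RefSeq table gives Kdm6a as a synonym of Uty, so it may not stand for the X-linked enzyme. It had 0.921, 0.766 and 0.884 RPKM in DHC cells, against 1.67, 1.45 and 1.17 RPKM in control cells, with an adjusted p of 0.0516 in limma. It passed in 7 alternatives, among them TMM scaling (0.0386), median-of-ratios scaling (0.0413) and limma-voom (0.00214). Another Y-linked row, Kdm5d, had 5.75 ± 0.393 RPKM in DHC cells and 4.59 ± 0.441 RPKM in control cells (SD, n = 3 each; adjusted p = 0.0535 from limma), and passed with limma-voom (0.00832) and with length trends removed (0.0446). Among the other demethylases not called (Kdm2a, Kdm2b, Kdm4a, Kdm4b, Kdm4c, Kdm7a and Kdm8), log2 changes ran between -0.13 for Kdm2b and 0.21 for Kdm8. Kdm4d and Kdm4e were below the filter: Kdm4d had 0, 0 and 2 reads in DHC libraries, against 0, 6 and 0 in control libraries, and Kdm4e had 2, 4 and 11 reads, against 6, 2 and 2.

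In the KMT2 and SETD1 family all 7 genes were tested, 3 fell (42.9%, beside 16.1% of all genes), none of the 7 passed as higher, and the median was -0.20 (-0.27 with TMM scaling, where 5 fell). Kmt2e (chr4:8187751-8255514), a relative of the MLL proteins with a SET domain and a PHD finger, had 44.3, 37.8 and 39.2 RPKM in DHC cells, against 63.0, 60.1 and 58.1 RPKM in control cells. All DHC libraries were below the controls, and the gene fell 1.49-fold (-0.57 ± 0.07, adjusted p = 0.000752). Setd1a, the catalytic subunit of a COMPASS complex that trimethylates H3K4, had 20.9, 19.3 and 19.8 RPKM in DHC cells, against 23.4, 24.5 and 23.3 RPKM in control cells (-0.24 ± 0.06, adjusted p = 0.0146). Its call was lost without DHC replicate 2 (0.0614) or control replicate 2 (0.0579). Kmt2b, an MLL-type H3K4 methyltransferase, had 11.6, 11.2 and 10.7 RPKM in DHC cells, against 12.7, 13.4 and 13.4 RPKM in control cells (-0.22 ± 0.06, adjusted p = 0.0291). Without DHC replicate 2 or 3 or control replicate 2 or 3 its adjusted p was between 0.083 and 0.092. Setd1b and Kmt2d also lay lower in every DHC library, with limma adjusted p-values of 0.0514 and 0.058, and both passed with TMM scaling (0.0193 and 0.0199). Kmt2a and Kmt2c overlapped between the groups, at 28.9 ± 3.32 and 28.9 ± 2.60 RPKM in DHC cells, against 29.5 ± 2.42 and 26.7 ± 3.78 RPKM in control cells (SD, n = 3 each). The Kmt2c row counts only 1029 bases of exon, beside 18552 for Kmt2d, so it covers a small piece of a long gene.

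Other SET-domain enzymes gave the largest drop among all members. Of 9 tested genes, 1 rose (11.1%, beside 18.4% of all genes) and 3 fell (33.3%, beside 16.1%), with a median of -0.06 (TMM: -0.12). Setd7 (chr2:140576188-140618405), which monomethylates H3K4 and several proteins that are not histones, had 15.0, 14.3 and 13.9 RPKM in DHC cells, against 30.7, 28.2 and 26.2 RPKM in control cells. It fell 1.97-fold (-0.93 ± 0.07, adjusted p = 8.49e-05), and no DHC library came near the controls. Kmt5a (chr12:37559770-37574750), the H4K20 monomethyltransferase, was the most abundant of all members, at 287, 285 and 278 RPKM in DHC cells, against 399, 366 and 375 RPKM in control cells. It fell 1.34-fold (-0.42 ± 0.05, adjusted p = 0.000445). Its level rests on a model of 969 bases of exon. Setd5, a SET-domain protein linked to neurodevelopment, had 56.7, 50.5 and 51.1 RPKM in DHC cells, against 68.4, 66.6 and 66.2 RPKM in control cells (-0.34 ± 0.06, adjusted p = 0.00307). Setd3, which methylates actin on a histidine, was the gene that rose, with 107, 106 and 108 RPKM in DHC cells, against 96.0, 94.2 and 93.4 RPKM in control cells (0.18 ± 0.04, adjusted p = 0.0102). With TMM scaling its adjusted p was 0.0591. The H3K36 methyltransferase Setd2 (67.0 ± 4.27 RPKM in DHC cells and 65.4 ± 5.26 in control cells; SD, n = 3 each) overlapped between the groups, as did Kmt5b, Setd4 and Setd6. Kmt5c, which places further methyl groups on H4K20, had 5.29 ± 0.323 RPKM in DHC cells and 4.61 ± 0.610 RPKM in control cells (SD, n = 3 each; adjusted p = 0.238 from limma).

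**Figure D2:**
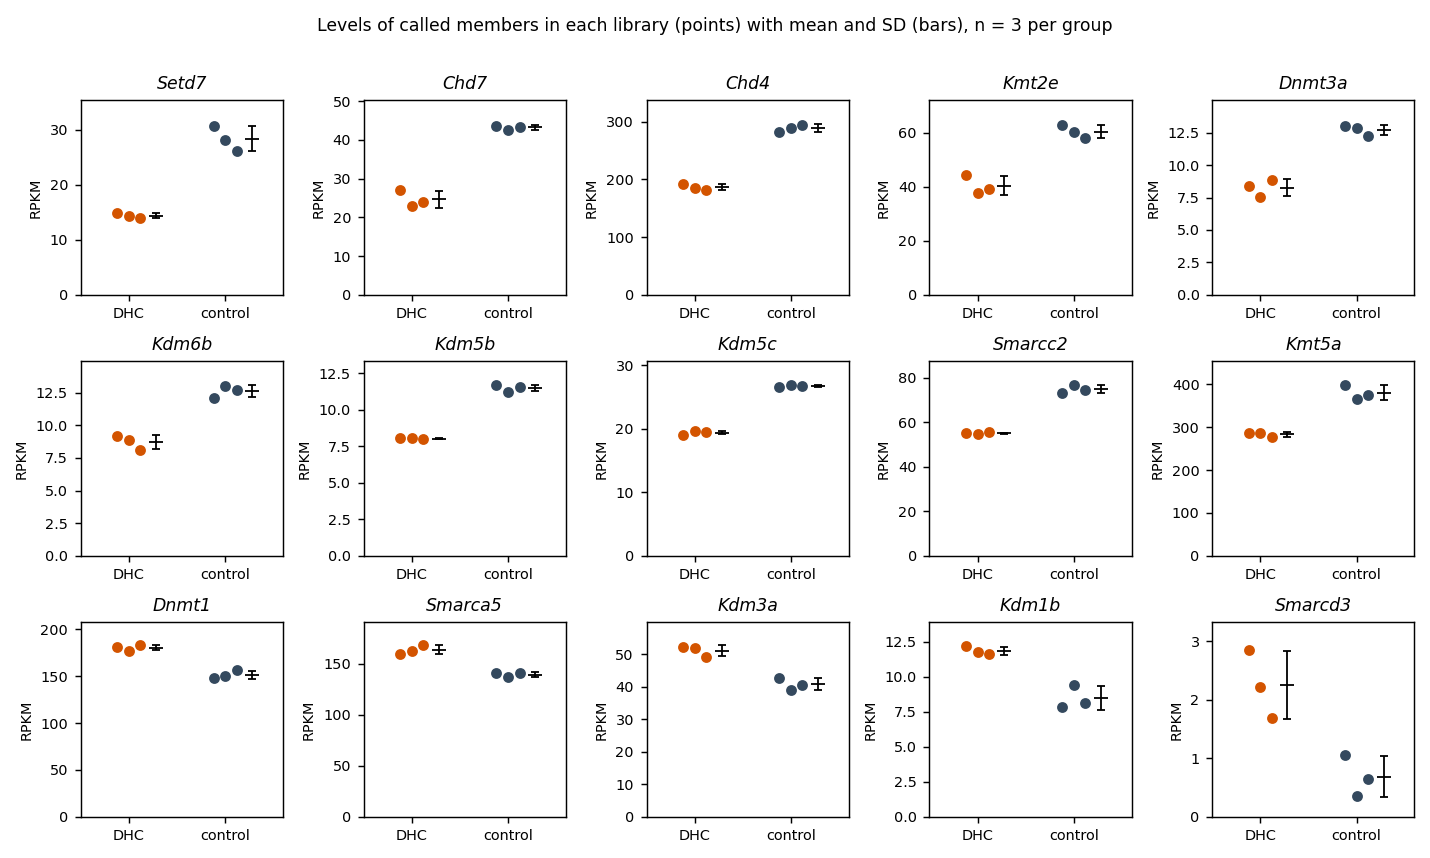
RPKM of 15 called genes in each library (points; y axes start at 0), DHC left and control right, with the mean and SD of the 3 libraries beside them. The first 10 panels are genes that fell and the last 5 are genes that rose; in each panel the 3 DHC points lie wholly on one side of the 3 control points.

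Core PRC2, which trimethylates H3K27, was the family whose genes all lay higher in DHC cells, although 1 of 4 passed the test. Of all genes tested, 18.4% passed as higher, and 28.1% had all 3 DHC values above all 3 control values. The PRC2 median was 0.15, and 0.08 with TMM scaling, where none of the 4 passed and the groups stayed apart for 1 of 4. With that scaling 12.0% of all genes passed as higher, and 2189 of 10667 stayed apart with DHC above. Suz12 (chr10:67325347-67369668), the scaffold of the complex, had 39.9, 38.8 and 36.1 RPKM in DHC cells, against 35.2, 30.5 and 27.9 RPKM in control cells (0.29 ± 0.09, adjusted p = 0.0346). Its adjusted p was 0.0681 with TMM scaling and between 0.0871 and 0.101 without DHC replicate 1 or 2 or control replicate 2 or 3. Eed, the subunit that reads H3K27 methylation and the most abundant of the 4, had 113, 109 and 108 RPKM in DHC cells, against 107, 102 and 98.7 RPKM in control cells (adjusted p = 0.114 from limma). The catalytic subunits Ezh2 and Ezh1 had 73.0 ± 1.44 and 16.2 ± 0.495 RPKM in DHC cells, against 66.8 ± 3.31 and 14.4 ± 0.415 RPKM in control cells (SD, n = 3 each). Their adjusted p-values in limma were 0.0812 and 0.0556. Ezh2 passed without control replicate 1 (0.0299) and without both libraries numbered 1 (0.0365), and Ezh1 with limma-voom (0.0359).

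DNA methyltransferases moved in opposite directions. Dnmt1 (chr8:21922515-21968495), which copies methylation after replication, had 181, 177 and 183 RPKM in DHC cells, against 148, 150.0 and 157 RPKM in control cells. It rose 1.19-fold (0.25 ± 0.04, adjusted p = 0.00307). Dnmt3a (chr6:28235695-28340577), which sets methylation anew, had 8.38, 7.57 and 8.83 RPKM in DHC cells, against 13.0, 12.9 and 12.3 RPKM in control cells. It fell 1.54-fold (-0.57 ± 0.07, adjusted p = 0.00104). The other de novo enzyme, Dnmt3b, was below the filter with 25 to 38 reads in DHC libraries and 31 to 42 reads in control libraries. Tet2 and Tet3, which oxidise methylcytosine, had 12.1 ± 0.810 and 13.4 ± 1.97 RPKM in DHC cells, against 13.7 ± 0.210 and 15.9 ± 1.51 RPKM in control cells (SD, n = 3 each). Neither passed the test in limma (adjusted p = 0.0799 and 0.134), and Tet2 passed with TMM scaling (0.0294). Tet3 passed with limma-voom (0.0351) and without DHC replicate 1 (0.0264).

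None of the 4 histone acetyltransferases passed the test, which 34.5% of all genes passed. Ep300, the coactivator p300, led the family with 10.9, 11.2 and 12.0 RPKM in DHC cells, against 10.3, 10.5 and 10.9 RPKM in control cells, and the groups overlapped (adjusted p = 0.283 from limma). Crebbp, its partner CBP, had 9.54 ± 0.480 RPKM in DHC cells and 9.56 ± 0.262 RPKM in control cells (SD, n = 3 each). The Ep300 row counts 2584 bases of exon and the Crebbp row 10103, so the rank of Ep300 may rest on a part of the gene. Kat2a had 2.52, 2.74 and 3.01 RPKM in DHC cells, against 1.95, 2.18 and 2.06 RPKM in control cells. Its paralog Kat2b had 2.46, 2.23 and 1.69 RPKM in DHC cells, against 3.53, 2.57 and 3.10 RPKM in control cells. These 2 enzymes of the SAGA and ATAC coactivator complexes were thus apart in opposite directions, with adjusted p-values of 0.0538 and 0.0671 in limma. Kat2b passed with TMM scaling (0.0464), median-of-ratios scaling (0.0497) and limma-voom (0.0256), and Kat2a with limma-voom (0.0280). At 0.29 ± 0.10 for Kat2a and -0.38 ± 0.14 for Kat2b, the log2 changes came from low levels, where a pseudocount of 1 shrinks them.

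Of 10 CHD remodellers, 9 were tested, 4 fell (44.4%, beside 16.1% of all genes), none of the 9 passed as higher, and the median was -0.11 (-0.18 with TMM scaling, where 6 fell). Chd4 (chr4:157612536-157645659), the main ATPase of the NuRD complex, had 192, 184 and 182 RPKM in DHC cells, against 281, 289 and 295 RPKM in control cells. This drop of 1.55-fold (-0.63 ± 0.04, adjusted p = 4.79e-05) had the lowest p of all members. Its NuRD paralog Chd3 had 44.6, 43.1 and 44.4 RPKM in DHC cells, against 53.5, 52.4 and 51.5 RPKM in control cells (-0.25 ± 0.04, adjusted p = 0.00433). Both alternative NuRD motors therefore fell. Chd7 (chr5:21830882-21950696), a remodeller of enhancers that is mutated in human CHARGE syndrome, had 27.0, 22.9 and 24.1 RPKM in DHC cells, against 43.7, 42.6 and 43.4 RPKM in control cells. It fell 1.75-fold (-0.79 ± 0.07, adjusted p = 0.00014). Chd1, which travels with elongating RNA polymerase II, had 85.6, 83.1 and 81.5 RPKM in DHC cells, against 104, 103 and 100.5 RPKM in control cells (-0.30 ± 0.04, adjusted p = 0.00161). Chd8 and Chd6, relatives of Chd7, lay above the controls in every DHC library, at 13.5 ± 1.11 and 4.52 ± 0.232 RPKM in DHC cells, against 11.5 ± 0.614 and 3.76 ± 0.229 RPKM in control cells (SD, n = 3 each), without passing in limma (adjusted p = 0.0682 and 0.0871). Both passed with limma-voom (0.0148 and 0.0102). Chd2, Chd1l and Chd9 had log2 changes of -0.11, -0.10 and -0.01 and did not pass, although Chd2 and Chd1l did with TMM scaling (0.0256 and 0.0462). Chd5 was below the filter, with 11, 0 and 5 reads in DHC libraries, against 8, 4 and 8 reads in control libraries.

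Of 13 SMARC subunits, 12 were tested, 3 rose and 2 fell. These shares, 25.0% and 16.7%, are near the 18.4% and 16.1% of all genes, and the median was -0.00 (TMM: -0.07). The SWI/SNF core scaffold Smarcc2 (chr7:2875909-2904453) had 54.9, 54.6 and 55.4 RPKM in DHC cells, against 73.2, 76.9 and 74.3 RPKM in control cells, a 1.36-fold fall (-0.44 ± 0.04, adjusted p = 0.000257). Its partner scaffold Smarcc1, the most abundant SMARC gene, had 224, 211 and 209.9 RPKM in DHC cells, against 206, 202 and 202 RPKM in control cells (adjusted p = 0.187 from limma). Smarcd3 (chr4:7076759-7108328), a variant subunit known from heart muscle, had 2.84, 2.22 and 1.68 RPKM in DHC cells, against 1.06, 0.349 and 0.647 RPKM in control cells. It rose 3.28-fold at a low level, and the log2 change was 0.95 ± 0.20 (adjusted p = 0.00873). Its alternatives Smarcd1 and Smarcd2 had 4.58 ± 0.222 and 14.0 ± 1.43 RPKM in DHC cells, against 4.82 ± 0.179 and 11.5 ± 0.680 RPKM in control cells (SD, n = 3 each). Smarcd2 missed the threshold in limma with an adjusted p of 0.0504 and passed in 5 alternatives, with limma-voom at 0.0198 and without DHC replicate 1 at 0.0147.

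Among the SMARC ATPases, Smarca5 (chr19:30936703-30969454), the motor of ISWI complexes that space nucleosomes, had 160.1, 163 and 169 RPKM in DHC cells, against 141, 137 and 141 RPKM in control cells. It rose 1.18-fold (0.23 ± 0.04, adjusted p = 0.00423). The other ISWI motor, Smarca1, was below the filter with 6, 2 and 8 reads in DHC libraries, against 22, 10 and 4 reads in control libraries. Smarca4, the more abundant SWI/SNF motor (BRG1), had 132 ± 7.35 RPKM in DHC cells and 127 ± 8.58 RPKM in control cells (SD, n = 3 each), and its log2 change of 0.05 turned to -0.02 with TMM scaling. Smarca2, the alternative motor BRM, had 36.0, 32.1 and 32.5 RPKM in DHC cells, against 38.2, 38.5 and 37.4 RPKM in control cells (-0.18 ± 0.06, adjusted p = 0.0459). That call was lost without any single library other than DHC replicate 1 (0.0856 to 0.152). Smarce1, a DNA-binding SWI/SNF subunit, had 187, 194 and 188 RPKM in DHC cells, against 171, 170.1 and 162 RPKM in control cells (0.18 ± 0.04, adjusted p = 0.014), and did not pass with TMM scaling (0.0692) or without DHC replicate 2 (0.0658) or control replicate 3 (0.0522). Smarcb1, Smarcal1 and Smarcad1 overlapped between the groups. The core subunit Smarcb1 was listed at 1.52 ± 0.357 RPKM in DHC cells and 1.86 ± 0.282 RPKM in control cells (SD, n = 3 each).

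**Figure D3:**
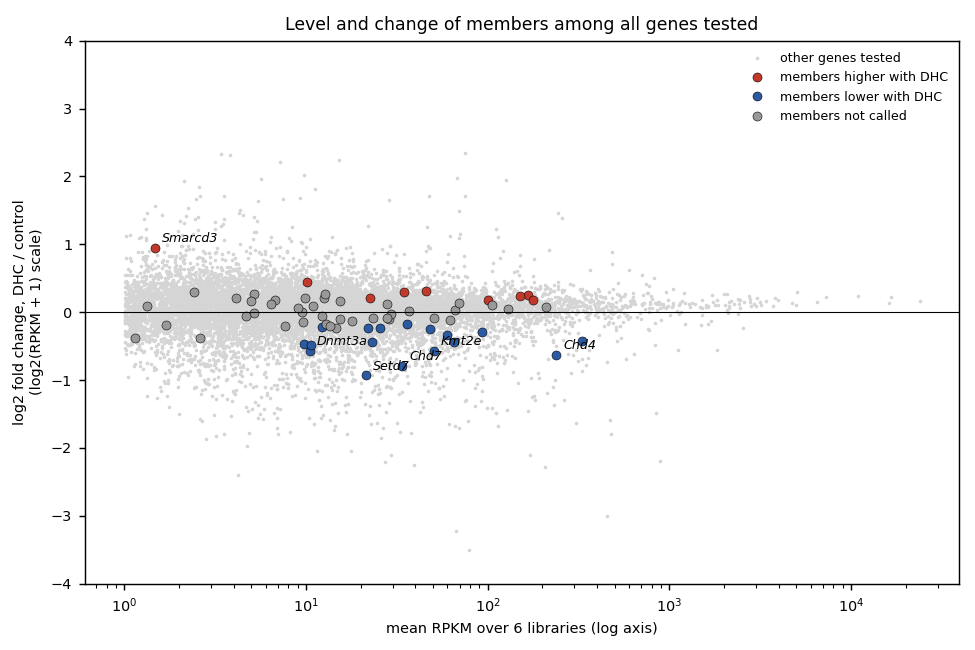
Log2 fold change of DHC over control cells (y axis, log2(RPKM + 1) scale) against mean RPKM over the 6 libraries (x axis, log scale) for all 10667 tested genes, with the 66 members in colour. Members lie within a narrow band of changes; Setd7, Chd7, Chd4, Kmt2e and Dnmt3a are the lowest of those named and Smarcd3 is the highest.

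A ratio of paralogs within a library does not depend on the scaling between libraries. Of 22 pairs listed, 20 had both genes above the filter, and for 11 of them the 3 DHC ratios did not overlap the 3 control ratios, 6 above and 5 below. The share among ratios of other gene pairs was not computed. Among single genes the groups did not overlap for 49.7% of all genes tested. Several of the pairs that were apart hold a gene already called above, such as Chd7, Smarcc2, Kdm3a or Kdm1b. Each such pair had an exact two-sided permutation p of 0.1, the smallest possible, and 0.182 after Benjamini-Hochberg adjustment over the 20 pairs, so none could pass. Chd7 over Chd8 was 1.86, 1.86 and 1.76 in DHC libraries, against 3.77, 3.92 and 3.59 in control libraries. Within each DHC library the pair was thus much closer in level. Smarcc1 over Smarcc2 was 3.91 ± 0.144 in DHC libraries and 2.72 ± 0.0964 in control libraries (SD, n = 3 each). For the H3K9 demethylases, Kdm3a over Kdm3b was 2.19 ± 0.0402 in DHC libraries and 1.48 ± 0.0844 in control libraries (SD, n = 3 each). Kdm5a over Kdm5c exceeded 1 in DHC libraries, at 1.25 ± 0.0863, and stayed under 1 in control libraries, at 0.773 ± 0.0605 (SD, n = 3 each). A like crossing was seen for Kat2a over Kat2b, with 1.35 ± 0.394 in DHC libraries and 0.689 ± 0.151 in control libraries (SD, n = 3 each). Neither Kat2a nor Kat2b had passed in limma, and the Kat2b row runs over chr9:4440982-4447715 with 2439 bases of exon. Whether a ratio lies above or below 1 also depends on the gene models of both rows. The flavin demethylases converged, with Kdm1a over Kdm1b at 1.25 ± 0.0759 in DHC libraries and 1.89 ± 0.127 in control libraries (SD, n = 3 each). Smarcd1 over Smarcd3 spread widely because Smarcd3 was low, at 1.53 to 2.77 in DHC libraries and 4.67 to 13.2 in control libraries. For Ezh2 over Ezh1 the ratios overlapped, at 4.50 ± 0.0819 in DHC libraries and 4.65 ± 0.346 in control libraries (SD, n = 3 each), and Ep300 over Crebbp, Tet2 over Tet3 and Setd1a over Setd1b overlapped too.

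**Figure D4:**
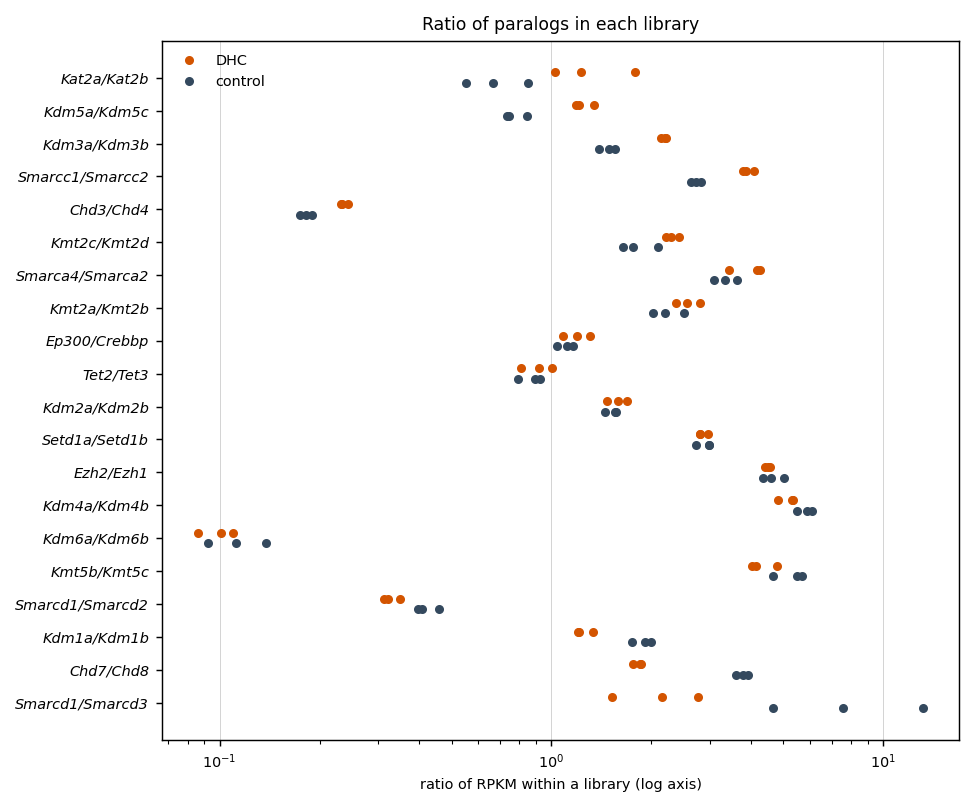
Ratio of RPKM of 20 pairs of paralogs in each library (x axis, log scale), with DHC libraries above and control libraries below within each row. The groups are apart in 11 rows, 6 with DHC to the right and 5 with DHC to the left, the widest gaps being Smarcd1/Smarcd3 and Chd7/Chd8.

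Genes that work with these enzymes were read from lists of partners, and none of those tested was among the 71. Of 115 symbols listed, some of them different names of 1 gene, 101 had a row, 97 were tested, 23 were higher and 21 lower, with a median of -0.01. These shares, 23.7% and 21.6%, stand beside 18.4% and 16.1% of all genes. With TMM scaling 11 were higher (11.3%) and 26 lower (26.8%), beside 12.0% and 19.8% of all genes. Single lists hold 5 to 15 tested genes, so their counts describe those genes alone. Among the 12 shared and MLL-specific subunits of the COMPASS complexes that serve the KMT2 and SETD1 enzymes, 4 rose and 4 fell (33.3% each). Pagr1 (chr1:198449040-198450688), which joins the Kmt2c and Kmt2d complexes, had 17.9, 17.2 and 16.9 RPKM in DHC cells, against 39.8, 38.3 and 36.5 RPKM in control cells. It fell 2.20-fold (-1.09 ± 0.05, adjusted p = 1.46e-05), more than any of the 66 tested members. Its binding partner Paxip1 rose instead, with 20.7 ± 0.997 RPKM in DHC cells and 15.9 ± 1.25 RPKM in control cells (SD, n = 3 each; adjusted p = 0.00724 from limma). Cxxc1, which guides the SETD1 complexes to CpG islands, fell to 61.7 ± 0.748 RPKM in DHC cells, against 84.2 ± 1.97 RPKM in control cells (SD, n = 3 each; adjusted p = 0.000236 from limma). The shared subunit Rbbp5 rose by 0.40 on the log2 scale (adjusted p = 0.00404 from limma).

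For SWI/SNF, 3 of 15 partners rose, a share near the 18.4% of all genes, and 1 fell (6.67%, beside 16.1%). Ss18l1, which in neurons replaces its paralog Ss18 in the complex, had 9.43, 10.5 and 8.07 RPKM in DHC cells, against 5.00, 4.81 and 4.67 RPKM in control cells (0.82 ± 0.10, adjusted p = 0.000755 from limma). Dpf3, a reader subunit, rose 1.49-fold, to 15.0 ± 0.746 RPKM in DHC cells, against 10.1 ± 0.535 RPKM in control cells (SD, n = 3 each; adjusted p = 0.001 from limma). Arid1a, the large DNA-binding subunit, fell 1.42-fold, to 24.5 ± 2.25 RPKM in DHC cells, against 34.7 ± 0.576 RPKM in control cells (SD, n = 3 each; adjusted p = 0.00158 from limma). Beside Chd4 and Chd3, 2 of 7 NuRD partners fell (28.6%, beside 16.1% of all genes) and 1 rose (14.3%, beside 18.4%). Mta3 fell by 0.51 on the log2 scale (adjusted p = 0.00416 from limma), while Gatad2b and Mbd2 passed narrowly (0.0411 and 0.0477) and were lost in several alternatives. Of 7 PRC2 accessory subunits, 2 fell (28.6%, beside 16.1% of all genes) and the other 5 did not pass. Phf19 fell by 0.45 and Aebp2 by 0.31 (adjusted p = 0.00863 and 0.00946 from limma). Of 14 members of the INO80, SRCAP and other remodeller list, 5 rose (35.7%, beside 18.4% of all genes) and 3 fell (21.4%, beside 16.1%). Actr8, an actin-related INO80 subunit, had 14.5, 15.0 and 14.4 RPKM in DHC cells, against 24.0, 23.0 and 22.9 RPKM in control cells (-0.64 ± 0.05, adjusted p = 0.00014 from limma). Baz2b, a bromodomain partner of ISWI motors, fell 1.87-fold (-0.87 ± 0.08, adjusted p = 0.000284). The helicase Hells and Ep400 were higher (adjusted p = 0.0192 and 0.0177 from limma), and both lost the call in some alternatives.

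Of 8 other SET and DOT1L genes 2 fell (25.0%, beside 16.1% of all genes) and 1 rose (12.5%, beside 18.4%). Whsc1 (listed under that older name, an H3K36 methyltransferase) fell 1.26-fold and Whsc1l1 fell 1.40-fold (adjusted p = 0.0015 and 0.00929 from limma). Smyd2 was higher with an adjusted p of 0.047 in limma, a call that was lost in most alternatives. Of 5 H3K9 methyltransferases 1 fell, a share near the 16.1% of all genes, and none of the 5 passed as higher (beside 18.4%). The gene that fell was Ehmt2, also called G9a. It had 25.0, 23.0 and 22.1 RPKM in DHC cells, against 28.2, 29.5 and 30.7 RPKM in control cells (-0.32 ± 0.06, adjusted p = 0.00685). Of 5 other JmjC proteins 4 fell (80.0%, beside 16.1% of all genes). Phf2 had 3.63 ± 0.412 RPKM in DHC cells and 5.74 ± 0.746 RPKM in control cells (SD, n = 3 each; adjusted p = 0.00949 from limma). Jmjd1c changed by -0.26 on the log2 scale (adjusted p = 0.0121). The 8 tested genes of methyl donor and 2-oxoglutarate metabolism, which serves some of these enzymes, had a median of 0.27. Of these, 4 were higher (50.0%, beside 18.4% of all genes) and none of the 8 lower (beside 16.1%). Mat2b, a regulatory subunit of the enzyme that makes S-adenosylmethionine, had 19.3, 21.7 and 20.3 RPKM in DHC cells, against 14.3, 14.4 and 15.3 RPKM in control cells (0.45 ± 0.06, adjusted p = 0.00167). Idh1, which makes 2-oxoglutarate from isocitrate, rose 1.36-fold (0.43 ± 0.07, adjusted p = 0.00307).

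Gene length went with the changes to a slight degree. Across the 66 members, Spearman's rho of log2 change with exon length was -0.248, and across all 10667 tested genes it was -0.0954, where genes share the same 6 libraries and are not independent replicates. With each library's trend on length removed, 10 members were higher and 20 lower, beside 15.0% and 18.3% of all genes.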

How the data were processed

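The deposited values are RPKM, 1 per gene and library, as found from the table itself: multiplied by exon length they fall on whole reads in 100% of cases, within 0.01 read. The authors' tools, per the submitters' processing notes, were Trimmomatic 0.36, Subread 1.5.1 with featureCounts, and edgeR 3.12.1, on Rnor_6.0. Aligner, annotation release and strand setting are not given, so an antisense gene's reads cannot be separated. RPKM carries no scaling beyond the library total. From these values, log2(RPKM + 1) was fitted with limma 3.58.1 (trended variance, group as the only term, R 4.3.3) for genes averaging at least 1 RPKM, with Benjamini-Hochberg adjustment over all genes tested and a threshold of 0.05. The fit was tried on simulated reads with as many genes raised as lowered and the same replicate variability for all genes. That simulation held no shift between libraries beyond the placed changes, so it cannot speak to the effect of scaling. Named with all values were, in each family, up to 4 called genes per direction by lowest p and the most abundant gene, and up to 2 per direction in each partner list. The members, lists and pairs were chosen with earlier results of these data known. Replicate libraries varied beyond sampling noise (chi-square per degree of freedom 4.52 to 15.9). Alternatives were other scalings, pseudocounts, filters, limma-voom on recovered reads, robust variance, removal of length trends, a replicate block, a threshold of 0.01 and leaving out libraries.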

Additional observations from a re-analysis of the deposited data

How the results depend on the processing

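Counts of higher genes depended on the processing more than counts of lower genes. Over all genes, 1968 were higher and 1717 lower. With TMM scaling 1285 were higher. At an adjusted p of 0.01, 873 were higher and 1076 lower. Leaving out 1 library at a time gave 1195 to 1755 higher and 1277 to 1610 lower genes, the fewest without DHC replicate 2. Among members, 9 were higher, and this became 5 with TMM scaling, 16 with limma-voom, 5 at 0.01 and 6 to 10 with a library left out. The 17 lower members became 24 with TMM scaling and 13 to 19 with a library left out. Among partner genes, 23 were higher, against 11 with TMM scaling, 11 with median-of-ratios scaling, 15 with no filter, 9 at 0.01 and 10 to 17 with a library left out, the fewest without control replicate 2.

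Whether replicate numbers pair the libraries stayed unclear. The correlations of same-numbered deviations were 0.228, -0.0495 and 0.0828, and those of differently numbered libraries ran from -0.183 to 0.106. With a replicate block 14 members were higher and 20 lower, beside 22.7% and 17.9% of all genes. Of the PRC2 core, Suz12 (0.0094), Eed (0.0395) and Ezh2 (0.0444) passed with the block. With limma-voom on the recovered reads 16 members were higher and 23 lower, beside 21.6% and 18.2% of all genes (2305 higher and 1938 lower).

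Directions reversed in genes and ratios that had not passed. With TMM scaling the log2 changes of Kdm4a, Smarca4 and Setd2 were -0.044, -0.015 and -0.030, and with median-of-ratios scaling -0.034, -0.0057 and -0.021. Without both libraries numbered 1, Setd6 was at -0.026, Chd9 at 0.0089, Smarcb1 at 0.011, Kdm4c at -0.074 and Ezh2/Ezh1 at 0.026. With a pseudocount of 1 in the ratio, Kdm6a/Kdm6b was at 0.10. Leaving out 1 library at a time gave a range of -0.14 to 0.0041 for Kmt5b, -0.040 to 0.021 for Crebbp, -0.043 to 0.22 for Setd6, -0.066 to 0.036 for Chd9, -0.051 to 0.16 for Kdm4c, -0.0015 to 0.095 for Smarca4, -0.12 to 0.026 for Kmt2a and -0.016 to 0.099 for Setd2. For ratios it gave -0.093 to 0.012 for Ezh2/Ezh1, -0.063 to 0.0035 for Setd1a/Setd1b and -0.011 to 0.15 for Tet2/Tet3. The cause of these changes was not tested. Depth limits what can be said of the 5 genes below the filter, and 3 libraries per group limit the exact tests to p = 0.1.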

Other observations

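Acetyltransferases outside the Ep300, Crebbp and Kat2 set were 8 tested genes, of which 3 rose (37.5%, beside 18.4% of all genes), 1 fell (12.5%, beside 16.1%) and 4 did not pass, with a median of 0.12. Kat6b, the catalytic subunit of a MOZ and MORF type complex, had 12.5, 12.7 and 12.9 RPKM in DHC cells, against 9.01, 9.37 and 9.20 RPKM in control cells (0.43 ± 0.06, adjusted p = 0.00127 from limma). Hat1, which acetylates newly made histone H4, rose 1.22-fold, to 39.8 ± 1.02 RPKM in DHC cells, against 32.7 ± 1.31 RPKM in control cells (SD, n = 3 each; adjusted p = 0.0053 from limma). Kat5, the catalytic subunit of the TIP60 complex, was lower, at 15.3, 18.3 and 16.7 RPKM in DHC cells, against 19.7, 23.2 and 21.9 RPKM in control cells (adjusted p = 0.017 from limma), a call lost in 3 alternatives.

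Of 8 arginine methyltransferases tested, 2 were higher and 1 lower, 37.5% called beside 34.5% of all genes, with a median of 0.05. Carm1, a coactivator that methylates histone H3, had 9.32 ± 0.440 RPKM in DHC cells and 11.2 ± 0.398 RPKM in control cells (SD, n = 3 each; adjusted p = 0.026 from limma), a call lost in 6 alternatives. Prmt9 and Prmt7 were higher with adjusted p-values of 0.0446 and 0.0491 in limma, and both calls were lost in most alternatives.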
